A study of Mus musculus with 9 samples.

Results

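Solute carriers are the membrane transporters that move amino acids, sugars, nucleosides, metals and other small molecules across the plasma membrane and the membranes of organelles. The genes described here are all those whose symbol begins with Slc and a digit in any of 5 lists made from mouse T helper 1 (Th1) cells: 143 genes of 7189 named in the lists. Of these, 141 are transporters or are classed as such, and Slc9a3r1 and Slc9a3r2 are scaffold proteins named after the sodium/proton exchanger they bind. A RefSeq table of 21900 protein-coding genes (assembly GRCm38.p6, used for names) holds 375 Slc genes, or 1.71% of coding genes, and all 143 matched it, 142 under their own symbol and Slc24a6 under a synonym of Slc8b1.

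Solute carriers set what an activated T cell can take up. A T cell that leaves the resting state raises its uptake of glucose, glutamine and other neutral amino acids, and exports lactate, which takes dedicated carriers for each substrate. Many families work as exchangers or are coupled to a sodium or proton gradient, so that ion carriers and nutrient carriers depend on each other.

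The cells were C57BL/6 CD4+ T cells carrying T-bet-ZsGreen, a fluorescent reporter of T-bet expression present in both genotypes. They were wild type or Tbx21-/-, that is, homozygous for a disrupted gene for T-bet, the lineage transcription factor of Th1 cells. Naive cells were activated under Th1 conditions (antibodies to CD3 and CD28, interleukin-2, interleukin-12 and an antibody against interleukin-4) beside irradiated splenocytes depleted of T cells, and ZsGreen-positive cells were sorted and grown on. RNA-seq was made from 2 libraries per genotype, H3K4me1 and H3K27me3 ChIP-seq from 1 library per genotype each, and T-bet ChIP-seq from 1 wild type library. The mice's ages and whether the duplicates came from separate mice are not given in the sources used here. H3K4me1 is a histone mark of enhancers and their surroundings, and H3K27me3 a mark of Polycomb-repressed chromatin.

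The lists limit what can be said. Expression was given as 1 FPKM value per genotype (a read density scaled by transcript length and library size), so a gene's change has no error and no test. Genes outside the 2 expression lists have no FPKM here. Each histone list carries both genotypes in its name, and neither its control nor the genotype with the stronger mark is stated. It is thus not known whether a listed region is any marked region or one that differs between the genotypes. A gene without a listed region may still carry the mark. Regions carry the closest gene named by the authors, a count of tags, and a fold enrichment set by the authors' peak caller. Library depth is unknown. Tbx21 transcript went from 271 FPKM (wild type) to 124 FPKM (Tbx21-/-). Its transcript was thus still measured in Tbx21-/- cells, and the labels do not say which exons are deleted. Ifng, the signature cytokine gene of Th1 cells, went from 1011 to 19.5 FPKM. Of 8 Th1 markers 6 were on the list of genes lower without T-bet, and Stat4 and Runx3 were on neither list. The 7 general T helper cell markers, such as Cd4 and Cd3e, were on neither list, so their levels are not known. Among markers of other cells, Cd79a, Igj and Pou2af1 (of 8 for B cells) were listed as higher in Tbx21-/- cells, with a summed level of 0.966 and 62.9 FPKM. So were Cd74, H2-Aa and H2-Ab1 (of 9 for myeloid and dendritic cells), with a summed level of 31.9 and 154 FPKM. These 3 are genes of MHC class II presentation and do not tell myeloid and dendritic cells from B cells. The other 6 markers of that set, such as Lyz2, Csf1r and Itgax, were on neither list. Blk (B cells) and Cd8a and Nkg7 (of 6 for CD8 T and NK cells) were listed as lower there, at 12.8 and 4.82 FPKM for Blk and a summed 611 and 61.9 FPKM for the other two. Of the remaining markers no level is known, and 0 of 6 erythroid and platelet markers were listed. The part of such cells in the solute carrier values, among them Slc7a8 and Slc25a23, which were higher in the same libraries, was not tested. In such bulk samples fewer cells of a type and less RNA per cell cannot be told apart.

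Expression differed enough to be listed for 4 solute carrier genes, 2 in each direction. Slc24a3 and Slc28a2 were among the 219 genes lower in Tbx21-/- cells (positively regulated by T-bet). Slc7a8 and Slc25a23 were among the 211 genes higher there (negatively regulated). The other 139 genes were on neither list, whatever their expression. With symbols updated, 3 of 375 Slc genes (0.800%) were on the positive list, where all coding genes gave 0.963%, and 2 (0.533%) on the negative list, where all coding genes gave 0.941%. For either list together the shares were 1.33% and 1.9%. These shares lie below the background by differences of a few genes.

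The sequences around the start sites of the 4 genes are given to show how unlike they are in base composition. Each runs from 250 bases before to 50 bases after the RefSeq start, 5′ to 3′ on the gene's strand, in build GRCm38.p6, with CG dinucleotides in capitals. They lie at chr2:145167525-145167824 (plus strand, the first of 2 windows of Slc24a3), chr2:122426185-122426484 (plus strand), chr14:54781837-54782136 (minus strand) and chr17:57059814-57060113 (minus strand, the first of 2 overlapping windows of Slc25a23).
Slc24a3: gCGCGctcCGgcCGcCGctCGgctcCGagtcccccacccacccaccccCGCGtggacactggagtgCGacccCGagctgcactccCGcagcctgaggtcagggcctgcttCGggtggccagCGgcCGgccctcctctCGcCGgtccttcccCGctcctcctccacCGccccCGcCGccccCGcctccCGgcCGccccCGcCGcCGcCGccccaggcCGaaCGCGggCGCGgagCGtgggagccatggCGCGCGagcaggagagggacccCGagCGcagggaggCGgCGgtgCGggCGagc
Slc28a2: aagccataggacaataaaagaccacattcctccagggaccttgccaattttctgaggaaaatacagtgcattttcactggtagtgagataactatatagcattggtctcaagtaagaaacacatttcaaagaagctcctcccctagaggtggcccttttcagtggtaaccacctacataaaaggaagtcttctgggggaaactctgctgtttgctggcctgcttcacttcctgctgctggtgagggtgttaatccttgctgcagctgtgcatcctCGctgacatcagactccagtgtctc
Slc7a8: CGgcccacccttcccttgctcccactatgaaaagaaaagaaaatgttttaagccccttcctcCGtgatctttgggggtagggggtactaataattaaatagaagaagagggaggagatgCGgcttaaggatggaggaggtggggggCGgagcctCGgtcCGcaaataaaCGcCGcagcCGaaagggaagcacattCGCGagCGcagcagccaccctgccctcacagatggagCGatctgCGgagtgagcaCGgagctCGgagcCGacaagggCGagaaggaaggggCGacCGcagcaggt
Slc25a23: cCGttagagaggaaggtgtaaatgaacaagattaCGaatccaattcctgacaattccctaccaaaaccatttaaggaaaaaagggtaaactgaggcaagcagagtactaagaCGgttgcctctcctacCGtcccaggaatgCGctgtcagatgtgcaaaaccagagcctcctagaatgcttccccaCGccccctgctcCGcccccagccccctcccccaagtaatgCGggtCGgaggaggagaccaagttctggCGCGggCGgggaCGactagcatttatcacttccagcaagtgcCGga

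The Slc24a3 window held 43 CG dinucleotides and 80.7% G and C, and the Slc28a2 window 1 and 46.7%. The Slc7a8 window held 20 and the Slc25a23 window 14. The median was 14 over 372 windows of Slc genes and 7 over all 32851 windows of the table. The second Slc24a3 window held 15 and 63.7% G and C, so the count at this gene depends on the start site taken. The letters GTGTGA, the core of the element that T-box factors bind, were in none of these 4 windows on either strand. They occurred in 58 of 372 Slc windows (15.6%) and in 14.5% of all windows. The longer GGTGTGA, which contains the core, occurred in 3.76% of Slc windows and in 3.98% of all windows. Since the region lists are in build mm9, no region was placed relative to these windows.

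Slc24a3 encodes a potassium-dependent sodium/calcium exchanger that extrudes calcium. Its level went from 8.48 FPKM (wild type) to 0.537 FPKM (Tbx21-/-). The authors' deposited table gives -3.93 as its log2 ratio of Tbx21-/- to wild type. This was the 15th largest of the 219 decreases in rank, while the median decrease of the list had a size of 1.59 on the same log2 scale. Its level in wild type was below the list's median of 17.5 FPKM, and the difference rests on a knockout value under 1 FPKM. On the log2(FPKM + 1) scale the difference was -2.63.

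Slc28a2 encodes a sodium-coupled nucleoside transporter that prefers purines. Its level went from 28.01 to 12.7 FPKM, and the authors' deposited table gives -1.20 on the log2 scale. The gene next to it, listed as Gm14085 and now named Slc28a2b, was also on the positive list, with 15.1 and 5.82 FPKM and -1.42 on the log2 scale of the authors' deposited table. These are closely related copies that may share reads, so the single values are uncertain. Gm14085 was the closest gene of 3 H3K4me1 regions, and Slc28a2 of 0 regions in any list.

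Slc7a8 encodes a light chain of the heteromeric exchangers for large neutral amino acids. Its level went from 2.59 to 11.5 FPKM, and the authors' deposited table gives 2.15 on the log2 scale. That was the 48th largest of 211 increases in rank, against a list median of 1.44. Slc25a23, a calcium-regulated mitochondrial carrier of ATP-magnesium and phosphate, went from 6.35 to 15.6 FPKM, or 1.28 on the log2 scale of the authors' deposited table. Neither gene was the closest gene of a T-bet, H3K4me1 or H3K27me3 region, so of the 4 genes only Slc24a3 had a listed region. The size of the 4 differences ran from 2.29-fold for Slc28a2 to 15.3-fold for Slc24a3 by the authors' ratio.

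**Figure D1:**
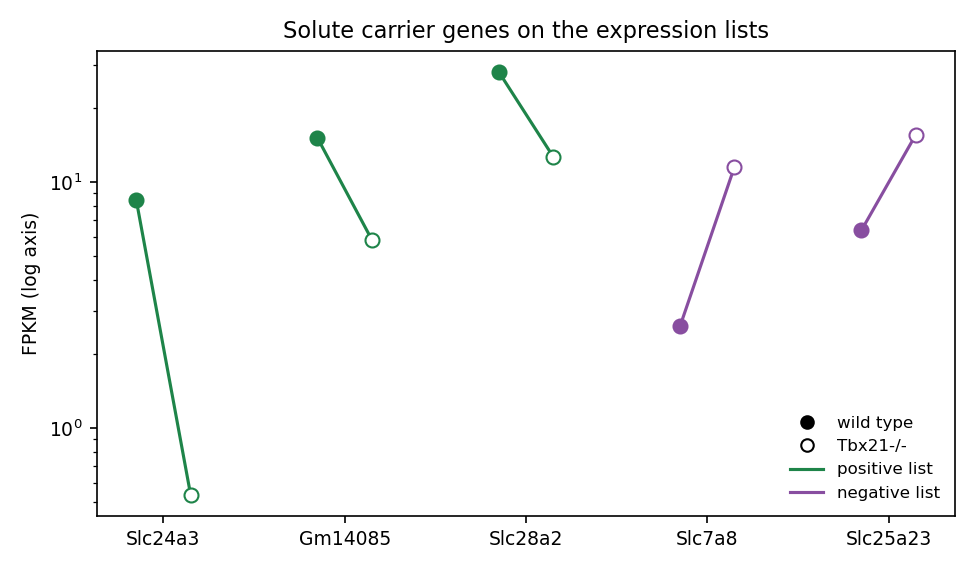
FPKM (log axis) in wild type (filled) and Tbx21-/- cells (open) for the solute carrier genes on the positive list (green) and the negative list (purple), with Gm14085, the neighbouring copy of Slc28a2. Each point is the authors' combined value for a genotype and has no error; Slc24a3 has the steepest difference, from 8.48 to 0.537 FPKM.

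Solute carrier genes made up a smaller share of the T-bet regions, and a larger share of the H3K4me1 and H3K27me3 regions, than the 1.71% they make up of coding genes. The T-bet list held 37 Slc regions of 3226 (1.15%) at 30 genes, the H3K4me1 list 158 of 7669 (2.06%) at 91 genes, and the H3K27me3 list 73 of 3949 (1.85%) at 53 genes. With symbols updated, 32 of 375 Slc genes (8.53%) had a T-bet region, where all coding genes gave 10.4%. For H3K4me1 the number was 96 (25.6%), where all coding genes gave 17.2%, and for H3K27me3 55 (14.7%), where all coding genes gave 11.8%. Taking all lists together, 151 of the 375 (40.3%) were listed and 224 were not, where all coding genes gave 29.7%. No test was made on these shares, since genes are not replicates, and gene length, which sets how often a gene is the closest, was not tested.

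Solute carrier regions were much like the other regions of their list in strength. The median fold enrichment of the T-bet regions was 2.46 (range 1.43 to 6.61), against 2.63 over the whole list. For H3K4me1 it was 7.41 (3.14 to 21.2) against 6.91, and for H3K27me3 6.64 (2.84 to 12.8) against 7.22. T-bet regions rested on few tags, from 6 to 18 per region with a median of 8. The exact Poisson 95% interval is 2.20 to 13.1 for 6 tags and 10.7 to 28.4 for 18 tags, for counting error only. All had a false discovery rate of at most 0.660% by the authors' caller. In the histone lists the regions of highest fold had few tags: across the 158 H3K4me1 regions the Spearman correlation of tags and fold was -0.67, and across the 73 H3K27me3 regions -0.74, as over the whole lists (-0.70 and -0.63). Points of a list share their libraries, so these values are descriptions.

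**Figure D2:**
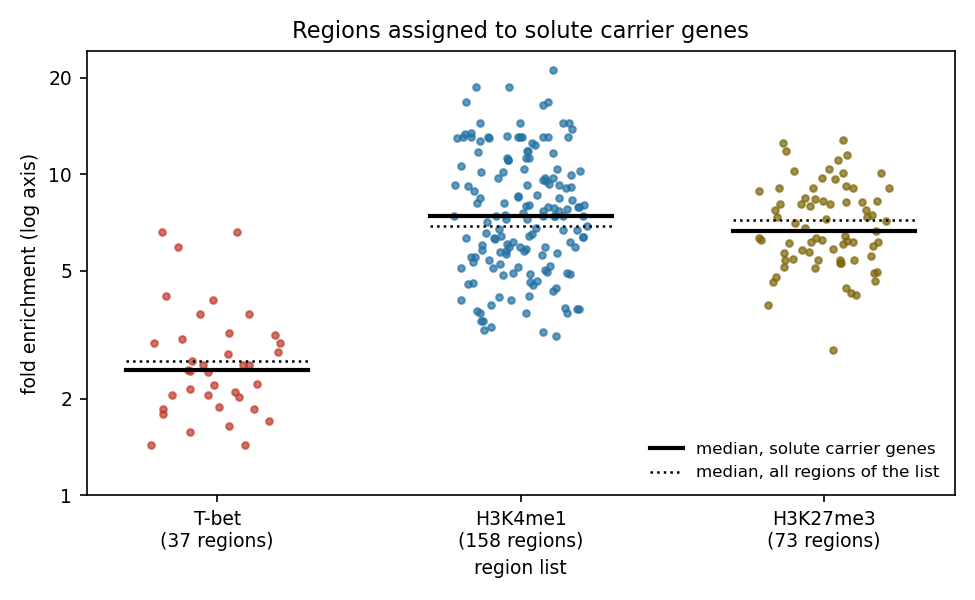
Fold enrichment (log axis) of each region assigned to a solute carrier gene, by list, with 37 T-bet, 158 H3K4me1 and 73 H3K27me3 regions. Solid bars are medians over these regions (2.46, 7.41 and 6.64) and dotted bars medians over all regions of the list; points are spread sideways for display only.

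Most of the 143 genes were on a single list. H3K4me1 alone accounted for 64 genes, H3K27me3 alone for 34, T-bet alone for 13 and expression alone for 3. A further 29 genes were on at least 2 lists and 5 on at least 3: Slc24a3, Slc38a2, Slc41a2, Slc35f3 and Slc45a1. Slc24a3 was the only gene on 4 lists. The same split was not made over all listed genes, so these counts are not known to be particular to solute carriers. Of the 30 genes with a T-bet region, 15 (50.0%) also had an H3K4me1 region, which is 16.5% of the 91 genes on that list; over all genes of the lists the shares were 47.5% and 28.3%. T-bet and H3K27me3 shared 7 solute carrier genes, 23.3% of the T-bet and 13.2% of the H3K27me3 genes. Over all genes of the lists these shares were 26.6% and 23.1%.

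**Figure D3:**
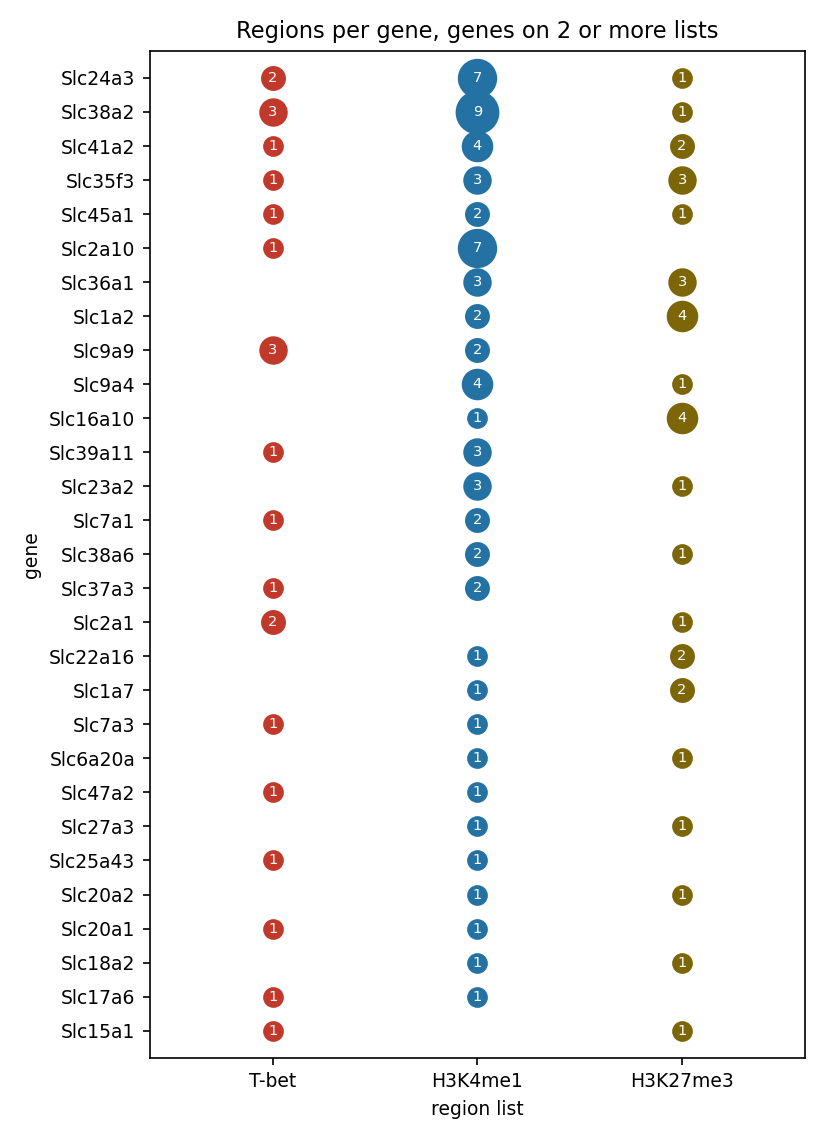
Number of T-bet, H3K4me1 and H3K27me3 regions (figures in the circles, whose area grows with the number) at the 29 solute carrier genes on at least 2 lists, ordered by the number of lists. Slc38a2 has the most, with 3 T-bet, 9 H3K4me1 and 1 H3K27me3 region.

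Amino acid and neurotransmitter carriers were the largest class, with 27 of 65 genes listed (41.5%). A T-bet region was found for 5 (7.69%), an H3K4me1 region for 19 (29.2%) and an H3K27me3 region for 11 (16.9%). All coding genes gave 29.7% listed, 10.4% with T-bet, 17.2% with H3K4me1 and 11.8% with H3K27me3, and these shares are the background of each class below. Class sizes and this background use updated symbols, while class counts use symbols as written in the lists. A class count thus leaves out Slc genes listed under an older symbol. Those of the classes described are named below. Slc38a2 stood out by its number of regions. It encodes a sodium-coupled importer of small neutral amino acids such as alanine and glutamine. It was the closest gene of 9 H3K4me1 regions on chromosome 15, the most of any solute carrier gene, spread over 110 kb. The 5 of them between 96654612 and 96660296 had fold enrichments from 11.1 to 18.7, and the 4 between 96550284 and 96604463 from 4.54 to 7.94. Of its 3 T-bet regions, 2 lay at 96538441 to 96538919 (11 tags, 2.98-fold) and 96540065 to 96540593 (10 tags, 2.14-fold). The other lay at 96657978 to 96658304 (7 tags, 2.63-fold), in a gap of the stronger H3K4me1 cluster and 0.553 kb from the next region. A single H3K27me3 region at 96594626 to 96595467 was 1.92 kb from the nearest H3K4me1 region.

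The other amino acid carriers had fewer regions in all than Slc38a2. Slc7a5 and Slc3a2, the chains of the main carrier of large neutral amino acids in activated T cells, were on none of the lists. Slc7a1, the importer of arginine and lysine, had 2 H3K4me1 regions of 7.56- and 5.52-fold and 1 T-bet region of 1.79-fold with 6 tags. Its relative Slc7a3 had 1 of each. Slc1a5, the exchanger for glutamine, had 1 H3K4me1 region of 4.63-fold. Slc7a6, Slc1a4 (alanine and serine), Slc6a6 (taurine) and Slc43a3, which moves purine nucleobases although its family is named for amino acids, had H3K4me1 regions only. The glutamate carriers Slc1a2 and Slc1a7 were on both histone lists, with 4 H3K27me3 and 2 H3K4me1 regions at Slc1a2 and 2 and 1 at Slc1a7. Slc1a3, Slc7a9 and Slc7a10 had 1 H3K27me3 region each and no H3K4me1 region. Slc7a14, of the Slc7 family, had an H3K27me3 region of 12 tags and 11.1-fold. Slc36a1, a proton-coupled amino acid carrier of lysosomes, had 3 regions of each histone mark, the nearest pair 6.83 kb apart.

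Sugar carriers were listed for 16 of 34 genes (47.1%, where all coding genes gave 29.7%), and 9 of the 12 genes of the facilitative glucose carrier family Slc2 were among them. Of this family 0 genes were on both histone lists, where all coding genes gave 4.42%. A count of 0 among 12 genes is near that share. Slc2a2, Slc2a8, Slc2a9 and Slc2a10 had H3K4me1 and no H3K27me3 regions, and Slc2a1, Slc2a3, Slc2a4, Slc2a6 and Slc2a7 the reverse. Slc2a1, the main glucose carrier of activated T cells, had 2 T-bet regions on chromosome 4, at 118778372 to 118778687 (7 tags, 1.88-fold) and 118798565 to 118798964 (12 tags, 2.06-fold). The second lay 0.797 kb from its H3K27me3 region at 118799761 to 118800311, of 17 tags and 8.08-fold. Slc2a3, a high-affinity glucose carrier, had 1 H3K27me3 region with 15 tags. Slc2a10 had 7 H3K4me1 regions on chromosome 2 over 47.6 kb and 182 tags in all, and its T-bet region at 165366518 to 165366831 (10 tags, 3.20-fold) lay inside the region at 165366492 to 165367080. Slc2a8 had 5 H3K4me1 regions, and Slc45a1, a proton-coupled sugar carrier, was on 3 lists, with at least 42.8 kb between regions of different lists. The kidney carrier Slc5a10 had 1 H3K4me1 region, of 50 tags and 16.5-fold.

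**Figure D4:**
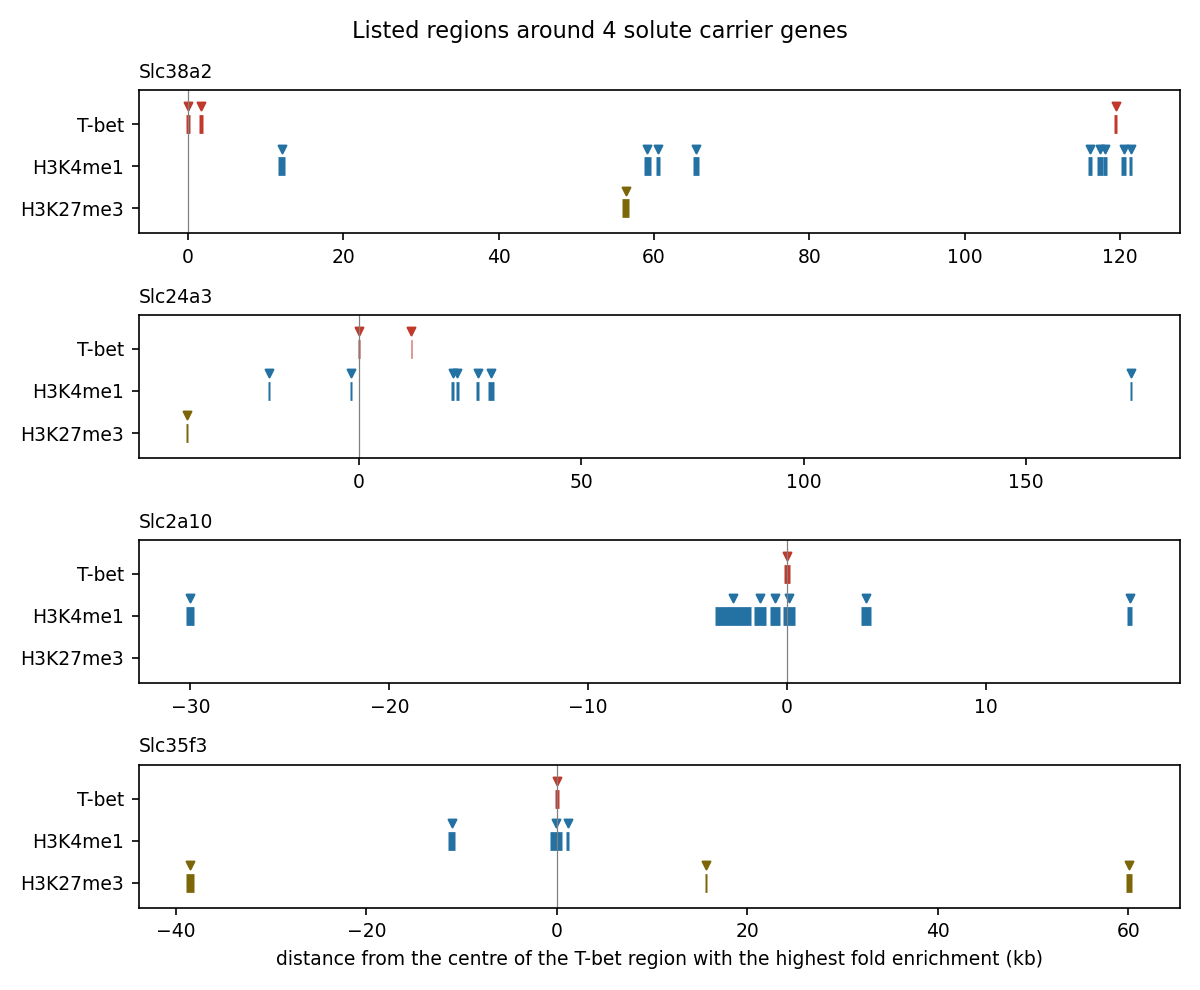
Regions assigned to Slc38a2, Slc24a3, Slc2a10 and Slc35f3, drawn to scale as distance in kb from the centre of the gene's T-bet region of highest fold enrichment; triangles mark the centre of each region, and each panel has its own axis. At Slc2a10 and Slc35f3 the T-bet region overlaps an H3K4me1 region, and at Slc38a2 and Slc24a3 it lies 11.4 kb and 1.298 kb from the nearest.

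Carriers of inorganic ions and protons were listed for 19 of 57 genes (33.3%), 15 of them with an H3K4me1 region (26.3% of the class). All coding genes gave 29.7% and 17.2%. Slc24a3, whose transcript was 15.3-fold lower in Tbx21-/- cells by the authors' ratio, had 7 H3K4me1 regions on chromosome 2 between 145002518 and 145196936. The highest of them, at 145043732 to 145044483, had 31 tags and 14.5-fold enrichment. Its T-bet regions, at 145022813 to 145023182 (11 tags, 2.20-fold) and 145034624 to 145034938 (6 tags, 2.06-fold), lay 1.298 and 8.79 kb from the nearest H3K4me1 region. Both had lower fold enrichments than the T-bet list's median. Its H3K27me3 region, at 144984159 to 144984564, had 13 tags. Slc9a9, a sodium/proton exchanger of endosomes, had 3 T-bet regions on chromosome 9, and that at 94510904 to 94511266 (10 tags, 5.95-fold) was the third highest of the 37 by fold. Slc12a3, the thiazide-sensitive sodium chloride carrier of the kidney, and Slc9a4 had 4 H3K4me1 regions each. Slc4a4, a sodium bicarbonate carrier, had 3, the highest of 18.7-fold. The phosphate importer Slc20a1 had 1 H3K4me1 region of 173 tags and a T-bet region 3.797 kb away. The H3K27me3 region at Slc26a10 had 115 tags, the most of the 73, and 2.84-fold enrichment, the lowest of its list.

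Metal ion carriers were listed for 18 of 32 genes, the highest share (56.2%) among classes of at least 10 genes, where all coding genes gave 29.7%. The H3K4me1 list held 12 of them, or 37.5% of the class, where all coding genes gave 17.2%. Of 14 Slc39 genes, the zinc importer family, 6 were listed, 5 with H3K4me1, 2 with T-bet and 0 with H3K27me3 regions. Of 10 genes of the zinc exporter family Slc30, 7 were listed, 4 with H3K4me1, 3 with H3K27me3 and 0 with T-bet regions. These are counts of a few genes, and the difference between the families was not tested. Slc30a1, the zinc exporter of the plasma membrane, was on the H3K27me3 list with 2 regions. Slc39a11 had a T-bet region (8 tags, 4.06-fold) that began 0.0200 kb after the end of an H3K4me1 region. Slc39a10 was the closest gene of 2 T-bet regions on chromosome 1, of 1.70- and 1.65-fold with 8 tags each. They spanned 1987 kb and lay 2775 and 2307 kb from the nearest H3K4me1 region. Slc41a2, a magnesium carrier, had 4 H3K4me1 regions, of which that at 82644485 to 82647843 on chromosome 10 had 240 tags, the most of all 158, with 3.23-fold enrichment. Of its 2 H3K27me3 regions, that at 82722961 to 82723292 had 12.5-fold, second among the 73. Slc40a1 (ferroportin), the iron exporter, had 1 H3K27me3 region of 10.1-fold.

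By symbols as written, mitochondrial carriers were the class listed least among those of at least 10 genes, with 13 of 47 genes (27.7%). This is near the 29.7% of all coding genes and the 28.6% of carriers of organic ions and vesicular transmitters. The H3K4me1 list held 6 (12.8%), below the share of all coding genes, the H3K27me3 list 4 and the T-bet list 3. Under an older symbol, 4930443G12Rik (now Slc25a54) was also on the H3K27me3 list. Slc25a37 (mitoferrin), which imports iron, had an H3K4me1 region of 20 tags and 7.26-fold. At Slc25a43 a T-bet region (6 tags) lay 0.344 kb from an H3K4me1 region of 10 tags and 16.9-fold.

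Carriers of nucleotide sugars feed glycan synthesis in the Golgi. Of 28 genes of this class 10 were listed by symbols as written (35.7%), all of the family Slc35. Of these 10, 4 had a T-bet region (14.3% of the class). All coding genes gave 29.7% and 10.4%. Under an older symbol, Tmem20 (now Slc35g1) was also on the T-bet list. Slc35f3, placed in this class by its family number only, had 1 T-bet, 3 H3K4me1 and 3 H3K27me3 regions on chromosome 8. Its T-bet region at 128724168 to 128724536 (10 tags, 6.59-fold, rank 106 of 3226) lay within the H3K4me1 region at 128723591 to 128724857. Its H3K27me3 region at 128739879 to 128740174 had the highest fold enrichment of the 73, 12.8 with 14 tags. Slc35b4 had the highest of the 158 H3K4me1 regions, 21.2-fold with 25 tags, at 34189175 to 34189711 on chromosome 6. Slc35c1, the carrier of GDP-fucose needed for selectin ligands, had an H3K27me3 region of 62 tags.

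Carboxylate carriers were listed for 9 of 19 genes (47.4%, where all coding genes gave 29.7%). Slc16a1, which moves lactate and pyruvate, had 5 H3K4me1 regions on chromosome 3 with 8 to 71 tags and fold enrichments from 4.94 to 11.2, and no T-bet or H3K27me3 region. Slc16a6 had 4 H3K4me1 regions, of which the widest held 236 tags. Slc16a10, which carries aromatic amino acids, had 4 H3K27me3 regions and 1 H3K4me1 region, 3.31 kb from the nearest of them.

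The remaining classes held few genes each. Among carriers of organic ions and vesicular transmitters 14 of 49 were listed by symbols as written (28.6%), near the 29.7% of all coding genes. Osta (now Slc51a), also of this class, was on both histone lists. Slc10a2, the bile acid carrier of the ileum, had the T-bet region of highest fold among the 37 (8 tags, 6.61-fold), 1981 kb from the nearest H3K4me1 region. Of 25 genes for vitamins, haem, choline and fatty acids 9 were listed by symbols as written. Of these 9, 6 had H3K4me1 regions, 5 H3K27me3 regions and 0 T-bet regions. The 9 included Slc19a1 (reduced folate) and Slc23a2 (vitamin C), the latter with 3 H3K4me1 regions. Under older symbols, Dirc2 (now Slc49a4) was on the T-bet list. So were 2310046K01Rik (now Slc52a3) and 2010107G12Rik (now Slc23a4) on the H3K4me1 list. Of 8 nucleoside carriers 4 were listed by symbols as written, with Slc29a3, a lysosomal carrier, at an H3K27me3 region of 11.8-fold. Gm14085 (now Slc28a2b), also of this class, was on the positive and H3K4me1 lists. Of 7 genes for peptides, urea and ammonium 2 were listed, both with H3K27me3 regions: Slc14a2 (urea) and the peptide carrier Slc15a1, which also had a T-bet region of 17 tags.

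**Figure D5:**
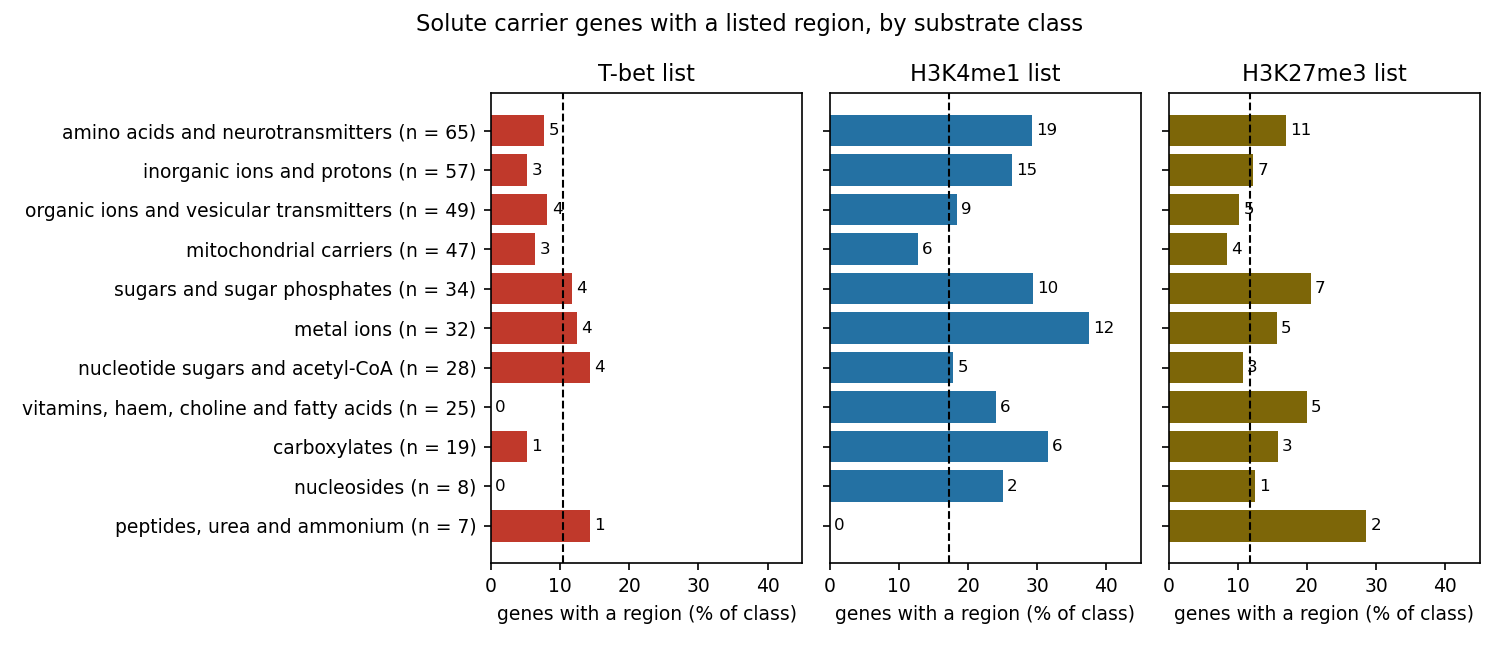
Share of each substrate class (number of RefSeq genes in brackets) that was the closest gene of a T-bet, H3K4me1 or H3K27me3 region; figures beside the bars are gene counts and dashed lines the share of all coding genes (10.4%, 17.2% and 11.8%). Metal ion carriers have the longest H3K4me1 bar (37.5%), and bars of classes with fewer than 10 genes rest on 0 to 2 genes. Bars count symbols as written in the lists, while class sizes and dashed lines use updated symbols.

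T-bet regions at solute carrier genes seldom touched an H3K4me1 region. Of the 37, 2 overlapped one by at least 1 bp (5.41%), at Slc2a10 and Slc35f3, against 308 of all 3226 (9.55%). Within 20 kb the numbers were 12 (32.4%) and 1283 (39.8%). The median distance to the nearest H3K4me1 region was 51.6 kb for the 37 and 37.2 kb for the whole list. For H3K27me3, 0 of 37 touched a region, against 16 of 3226 (0.496%), and 4 lay within 20 kb (10.8%, against 14.4%).

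Both histone lists named 17 solute carrier genes, 18.7% of the H3K4me1 and 32.1% of the H3K27me3 genes; over all genes of the lists the shares were 25.7% and 37.3%. With symbols updated, 18 of 375 Slc genes (4.80%) were on both, where all coding genes gave 4.42%. The nearest regions of the opposite marks were never touching and had a median distance of 11.3 kb, with 12 of 17 within 20 kb. These distances were not taken over all genes on both lists. Whether they are particular to solute carrier genes is thus not known. The closest were at Slc1a7 (1.60 kb), Slc38a2 (1.92 kb) and Slc27a3 (2.02 kb), and the farthest at Slc41a2 (57.4 kb). Since each list is named for both genotypes, the marks at a gene may come from different libraries.

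Some regions named for a solute carrier lay beside a gene that was itself on an expression list. In the RefSeq gene order, 10 of 143 genes (6.99%) had such a neighbour, near the 6.20% of all listed coding genes. They include Slc28a2, which had 0 regions and whose neighbour is Gm14085. Slc41a2 lies beside Chst11, a chondroitin sulfotransferase gene that went from 17.5 (wild type) to 6.47 FPKM (Tbx21-/-) and had 19 H3K4me1 regions, and the nearest regions of the pair were 5.16 kb apart. Slc9a4 lies beside Il18rap, a subunit of the interleukin-18 receptor at 85.9 and 40.97 FPKM, and their H3K4me1 regions came within 4.85 kb. Slc24a1 lies beside Dennd4a (23.01 and 3.14 FPKM, 19 H3K4me1 regions), at 74.8 kb, and Slc16a1 beside Fam19a3 (19.9 and 4.33 FPKM), at 60.5 kb. Slc19a1 lies beside 2 genes higher in Tbx21-/- cells, Pcbp3 (2.20 and 5.68 FPKM), with H3K4me1 regions 28.6 kb apart, and Col18a1 (2.62 and 11.3 FPKM). Slc45a1 lies between Rere, higher there (6.05 and 15.3 FPKM), and Errfi1, lower there (8.02 and 2.99 FPKM). Slc27a2 lies beside Atp8b4 (22.6 and 3.63 FPKM, 7 H3K4me1 regions), Slc30a4 beside AA467197 (218 and 81.2 FPKM) and Slc16a12 beside Ifit1 (6.87 and 3.03 FPKM). The part of such neighbours in the regions named for these solute carriers was not tested.

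Other transport and metabolic gene lists held 0 to 3 genes each from the expression lists, on which 1.9% of all coding genes stood. Of 50 ABC transporter genes 1 was positive, Abcb1b (7.66 and 2.54 FPKM), and 1 negative, the cholesterol exporter gene Abcg1 (3.54 and 9.92 FPKM). Of 64 ion-pumping and lipid-moving ATPase genes 1 was positive, Atp8b4 (22.6 and 3.63 FPKM), and of 21 genes of glycolysis and lactate 1 was negative, Ldhb (3.33 and 8.63 FPKM). None of 14 Slco genes, 11 aquaporin genes, 26 genes of amino acid sensing and mTORC1, or 11 genes of metal binding and iron handling was on an expression list. Among the 13 nucleoside and purine genes, 3 (23.1%) were positive and 0 negative: the receptor gene Adora2a (22.4 and 11.2 FPKM), and the ectoenzyme genes Cd38 (5.84 and 1.14 FPKM) and Entpd1 (24.9 and 11.8 FPKM). The share of genes with a T-bet region was 38.5% for both the nucleoside list (5 of 13) and the amino acid sensing list (10 of 26), where all coding genes gave 10.4%. These gene lists were chosen with earlier results of these data known, so their shares cannot be read as a finding about such genes. Such a region was found for 14 of 64 ATPase genes, 4 of 21 of glycolysis and lactate, 2 of 11 aquaporins, 7 of 50 ABC transporters, 1 of 14 Slco genes and 0 of 11 of metal binding and iron handling.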

How the data were processed

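RNA-seq and ChIP-seq libraries of mouse Th1 cells (9 samples in 7 groups, grouped by their titles) were used as 5 lists that the authors deposited. Build mm9 is named in the submitters' processing notes, as are TopHat 1.3.3, DESeq, MACS 1.4.1, Bowtie 0.12.7 and CASAVA 1.7, without roles. Per the file headers, the deposited expression lists give FPKM per genotype, combined by the authors over duplicates, and the authors' log2 ratio, negative where Tbx21-/- is lower. The deposited region lists give counts of tags, the authors' fold enrichment (a ratio) and closest gene, and for T-bet a false discovery rate in percent. Depth is unknown.

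Symbols were matched to RefSeq coding genes (GRCm38.p6) by symbol, then by unambiguous synonym, and 8 older symbols of Slc genes were found only this way. Substrate classes follow the family number, and class counts use symbols as written, without these 8. Overlap needed at least 1 bp, and distances run from end to start. No test across genes was made. Genes named are those on an expression list, on 3 or more lists, with the most regions or highest fold per list, and of the largest families, except 1 gene that is not reported here. Others, such as Slc7a1, Slc1a5 and Slc2a3, were chosen for their known role or after their values were seen. Members and lists were chosen with earlier results of these data known. Counting was tested on simulated lists. Software was matplotlib 3.10.9, SciPy 1.17.1, pandas 2.3.3, numpy 2.4.6 and Python 3.11.15.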

Additional observations from a re-analysis of the deposited data

How the results depend on the processing

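No paired analysis was possible because the authors' lists give 1 combined value per genotype, and for the same reason no replicate could be left out. A pseudocount of 1 or 0.1 FPKM, which cannot turn a log2 ratio, left all 4 above 1 in size, with the largest shift at Slc24a3, from -3.93 to -2.63. Solute carrier genes on the expression lists numbered 4, 3 with at least 10 FPKM and 2 with a log2 ratio of at least 1.5 in size. Keeping only regions at or above the list's median fold gave 14 genes with T-bet (of 30), 54 with H3K4me1 (of 91), 30 with H3K27me3 (of 53) and 8 on both histone lists (of 17). Keeping only regions at or above the median tag count gave 14 with T-bet, 48 with H3K4me1 and 37 with H3K27me3. Such limits remove regions by construction. Updated symbols gave 32, 96 and 55 genes. A false discovery rate of at most 5% could remove no T-bet gene, since the highest value was 0.660%. T-bet regions touching H3K4me1 numbered 2, also when covering at least 50% of the region was required, and 5 within 1 kb. The few tags per T-bet region limit any ranking of single genes.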
